A study of Mus musculus with 9 samples.

Results

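Long noncoding RNAs of mouse embryonic stem cells were followed across 3 related stem cell lines. The set held the pluripotency-associated transcripts (Platr genes and Lncenc1), the hosts of small nucleolar RNAs (Snhg genes and Gas5), the microRNA hosts Mir17hg and Dleu2, the nuclear RNAs Malat1 and Neat1, and Tug1. Genes were chosen by name, and at least 50 counts summed over 9 libraries were required; Snhg11 and Snhg14 were left out. Of 50 genes with such names, 43 reached the minimum, out of 52636 genes in the table. The 43 were 26 pluripotency-associated RNAs, 12 snoRNA hosts, 2 microRNA hosts, 2 nuclear RNAs and Tug1. The annotation types 2 of them, Platr17 and Platr25, as protein coding. The shares of long noncoding genes given below therefore leave these 2 out. Below the minimum were Platr32 with 19 counts, Platr19 with 9, Platr13 with 8, Snhg3 with 3, Platr2 and Platr30 with 2 each, and the hairpin gene Mir290b with 0. The members nearest above it were Platr29 with 55 counts and Platr1 with 61.

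The titles call the lines NanogKO:Esrrb:Nanog (44JN), here the Esrrb+Nanog line, NanogKO:Esrrb (44J), here the Esrrb line, and NanogKO (44C6), here the Nanog-null line. The labels give 44JN and 44J the same genotype and the same cell line, N{delta}:cE:iN, and give 44C6 the genotype N{delta}. The groups, and the word line for them, follow the titles. All 3 therefore share the Nanog deletion, and the labels state neither the promoters of the added genes nor the part of Nanog removed. Each line supplied 3 libraries of ribosome-depleted total RNA from untreated cells in serum and LIF, sorted as PECAM positive and PDGFRA negative. By title a group is 1 line, so an added gene and its line cannot be told apart. Whether replicates were separate cultures is not stated. P-values therefore measure the spread between these libraries.

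Platr RNAs are named for transcripts that mouse embryonic stem cells lose when they leave pluripotency, and for most of them no molecular role is established. Lncenc1 is a nuclear RNA of naive mouse stem cells linked to their glycolytic genes. SnoRNA hosts are spliced like messenger RNAs, and their introns are trimmed into snoRNAs that guide methylation (C/D box) or pseudouridylation (H/ACA box) of ribosomal RNA. The spliced host is often removed by nonsense-mediated decay, and several hosts begin with a run of pyrimidines, as do messenger RNAs of the translation machinery. Mir17hg carries the miR-17-92 cluster, which promotes proliferation, and Dleu2 carries miR-15a and miR-16, which restrain the cell cycle. Malat1 lies in nuclear speckles, the storage sites of splicing factors, and Neat1 is the scaffold of paraspeckles.

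The microRNAs that these hosts encode are shown because the libraries count the host transcript and not the mature product. Mature sequences are from RefSeq (GRCm38.p6), and capitals mark the seed, bases 2 to 8. In Mir17hg (chr14:115042879-115046727, plus strand), miR-17 and miR-20a share 1 seed, and miR-19a and miR-19b share another.
miR-17-5p: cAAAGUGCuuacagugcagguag
miR-20a-5p: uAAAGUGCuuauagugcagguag
miR-18a-5p: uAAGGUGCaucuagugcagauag
miR-19a-3p: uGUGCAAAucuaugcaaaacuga
miR-19b-3p: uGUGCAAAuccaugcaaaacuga
miR-92a-3p: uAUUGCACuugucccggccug
In Dleu2 (chr14:61602839-61682373, minus strand), both microRNAs carry the same seed.
miR-15a-5p: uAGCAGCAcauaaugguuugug
miR-16-5p: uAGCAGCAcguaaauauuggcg

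The start sites of snoRNA hosts are shown for the pyrimidine run that the class is known for. A RefSeq promoter was found for 28 of the 43 members. The entry for Mir17hg (chr14:115044140-115044439) lies inside the host and holds miR-20a and miR-19b. It therefore does not cover the annotated start of the host, but it is kept in the counts over the 28. The entries for Platr3, Platr6, Platr14, Snhg20 and Tug1 likewise do not cover the annotated start of the gene and are kept. For Platr3 (chr2:135646273-135646572) the annotated start is at 135648907. The starts below are therefore those of the RefSeq entries. Windows reach from 15 bases before to 25 bases after the start, and capitals mark a run of at least 5 C or T that comes within 5 bases of the start on the transcribed strand.
Gas5, chr1:161035151-161035190, plus strand: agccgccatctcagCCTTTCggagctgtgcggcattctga
Snhg1, chr19:8723472-8723511, plus strand: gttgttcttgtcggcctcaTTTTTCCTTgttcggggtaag
Snhg8, chr3:123508312-123508351, minus strand: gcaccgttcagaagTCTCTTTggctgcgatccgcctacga
Snhg12, chr4:132308663-132308702, plus strand: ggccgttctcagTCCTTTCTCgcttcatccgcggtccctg
Such a run was present in 8 of 11 snoRNA hosts with a promoter (72.7%) and in 6 of 13 pluripotency-associated RNAs (46.2%), against 36.7% of 27025 genes. Where a gene has 2 RefSeq starts, as Gas5 does, a run at either start was counted. Platr3 and Platr6 are among the 6, so 46.2% is not a share at the annotated starts of the genes.

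The element TCAAGGTCA, which ESRRB binds, and its core AAGGTCA were searched on both strands of promoters from 250 bases before to 50 bases after the start. The longer element, which contains the core, was in 0 of the 28 member promoters and in 126 of 27025 genes (0.466%). The core was in Platr7 and Snhg18, 7.14% of the 28, which is near the 5.38% of all genes. In the promoter of Snhg18, which was not called in any comparison, the core lay on the reverse strand, 17 bases before the start. In the Platr7 promoter (chr10:84553289-84553588, minus strand, GRCm38.p6) it lay on the reverse strand, 230 bases before the start, and capitals mark it.
Platr7 promoter: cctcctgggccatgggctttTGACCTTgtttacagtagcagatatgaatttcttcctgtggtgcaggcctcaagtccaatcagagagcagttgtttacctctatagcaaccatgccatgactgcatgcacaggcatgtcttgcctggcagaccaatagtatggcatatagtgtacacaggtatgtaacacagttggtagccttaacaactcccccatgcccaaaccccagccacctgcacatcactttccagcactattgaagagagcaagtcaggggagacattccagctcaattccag
A match describes these letters and does not show binding.

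Library totals ran from 21808120 to 32496267 counts, and the 43 RNAs took 0.186% to 0.254% of them. In CPM (counts per normalized library total, the usual unit of edgeR), Nanog read 221, 289.5 and 333 in Esrrb+Nanog cells, 29.7, 35.1 and 30.4 in Esrrb cells and 14.3, 14.3 and 16.02 in Nanog-null cells. Esrrb was at 1056 to 1151 CPM in the Esrrb+Nanog line, 692 to 949 CPM in the Esrrb line and 253 to 303 CPM in the Nanog-null line. Nanog was called higher in Esrrb+Nanog than in Esrrb cells (log2 change 3.15 ± 0.13), and also in Esrrb than in Nanog-null cells (1.09 ± 0.14, adjusted p = 5.92e-05), although the title of the Esrrb line names no added Nanog. Esrrb was called higher in Esrrb than in Nanog-null cells (1.54 ± 0.11), and also in Esrrb+Nanog than in Esrrb cells (0.46 ± 0.10, adjusted p = 0.0133). That last call ended without Esrrb replicate 1 (0.0633) or Esrrb+Nanog replicate 2 (0.0544), given as adjusted p. Both genes therefore differ in each comparison, and their parts cannot be told apart. The 8 embryonic stem cell markers, among them Pou5f1, Sox2 and Zfp42, summed to 3291 to 3504 CPM in the Esrrb+Nanog line, 3504 to 3635 CPM in the Esrrb line and 2579 to 2819 CPM in the Nanog-null line. In CPM, 9 primitive endoderm markers summed to 406 to 482, 234 to 360 and 58.9 to 185 in the Esrrb+Nanog, Esrrb and Nanog-null lines. Most of that sum was the laminin gene Lama1 in the Esrrb+Nanog line, at 330 to 404, against 103 to 183 and 28.1 to 64.1. Other markers of that list were highest in the Esrrb line: Gata6 was at 3.62 to 10.6, 13.5 to 39.0 and 1.39 to 6.09, and Pdgfra at 1.77 to 3.86, 5.84 to 14.1 and 0.463 to 4.43. The 7 trophoblast markers summed to 30.3 to 39.1, 20.8 to 27.6 and 53.9 to 195, with Elf5 at 0 in the Esrrb libraries; Krt18 was at 6.97 to 8.61, 6.22 to 7.91 and 24.4 to 102. The 7 fibroblast markers summed to 261 to 399, 226 to 470 and 48.9 to 171, mostly through Vim, with Postn at 0 in the Esrrb+Nanog and Esrrb libraries. In edgeR, 5 of 8 tested primitive endoderm markers were higher and 1 lower in Esrrb than in Nanog-null cells, 0 and 4 of 6 trophoblast markers, 2 and 3 of 5 fibroblast markers, and 4 and 1 of 8 stem cell markers. In Esrrb+Nanog against Esrrb cells, 1 primitive endoderm marker was higher (Lama1) and 3 were lower (Gata6, Pdgfra and Dab2), with a median of -0.95, and 1 stem cell marker was lower. Against Nanog-null cells, the Esrrb+Nanog counts higher and lower were 2 and 1, 0 and 3, 2 and 2, and 4 and 3 in the same order of lists. Of all 16198 tested genes, 48.5% were called for Esrrb against Nanog-null, 13.2% for Esrrb+Nanog against Esrrb and 54.4% for Esrrb+Nanog against Nanog-null. The marker lists hold few genes, and their counts were not tested against these shares. Nanog-null replicate 2 stood apart: Acta2, the smooth muscle actin, was at 54.3 CPM in it and at 7.69 and 16.1 CPM in the other Nanog-null libraries. The part of these other-cell markers in the differences between lines was not tested, and in bulk RNA fewer cells of a type and less RNA per cell cannot be told apart.

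The 43 RNAs covered more than 3 orders of magnitude in level. Per kilobase of merged exons and averaged over the 9 libraries, the highest was Lncenc1 at 174 CPM per kilobase and the lowest was Platr1 at 0.0752. After Lncenc1 came Platr10 at 70.9, Gas5 at 54.5, Snhg5 at 53.2, Snhg1 at 41.9 and Malat1 at 41.7 CPM per kilobase. Merged exons hold every base that is exon in any annotated transcript. For Gas5 they span 3760 bases from 25 transcripts, and for Snhg1 they form 1 exon of 2969 bases, its whole gene. Where they include introns of the spliced RNA, its level per kilobase reads too low, so the order between classes also rests on the annotation. The median was 5.45 over all 43 RNAs, 16.5 over the snoRNA hosts and 3.60 over the pluripotency-associated RNAs, and 17 members exceeded 10 CPM per kilobase while 8 were under 1. The hosts also varied less between replicates: the median coefficient of variation was 8.88%, 10.3% and 10.9% over the hosts in the Esrrb+Nanog, Esrrb and Nanog-null lines, against 16.7%, 17.8% and 17.0% over the pluripotency-associated RNAs. Low RNAs have more counting error, so this difference was not separated from level.

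**Figure D1:**
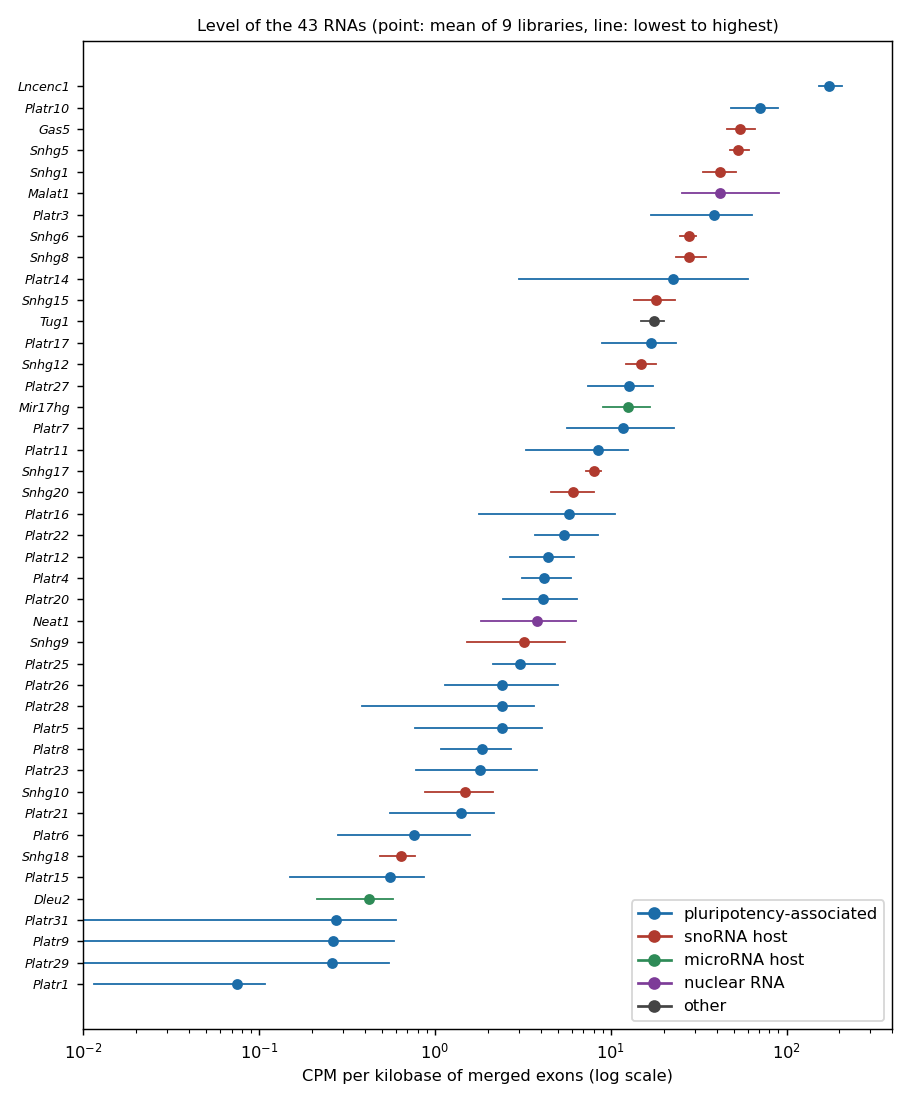
Level of each of the 43 RNAs in CPM per kilobase of merged exons on a log axis. Points are means of 9 libraries and lines run from the lowest to the highest library; for Platr9, Platr29 and Platr31 the line reaches the left edge because 1 library had 0 counts. Lncenc1 stands highest at 174, and the lines of Platr14 and Platr28 are far longer than those of most snoRNA hosts.

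Of the 43 RNAs, 41 passed the low-count filter, all but Platr1 and Platr29. Platr1 had 1 to 11 counts in a library and Platr29 had 0 to 14. A gene was called when its adjusted p in edgeR's quasi-likelihood test, fitted to all 16198 tested genes, was under 0.05. Between Esrrb and Nanog-null cells, 11 of the 41 were higher with Esrrb and 10 were lower, or 51.2%, against 48.5% of all tested genes (24.2% in each direction) and 36.9% of 1061 tested genes annotated as long noncoding. Between Esrrb+Nanog and Esrrb cells, 0 were higher with Nanog and 8 were lower, or 19.5%, against 13.2% of all genes and 8.11% of long noncoding genes; over all genes, 5.43% were higher and 7.75% were lower. In that comparison 1 member was higher and 12 were lower at an unadjusted p under 0.05. The share of all genes at that threshold was not computed, so nothing particular to the members can be read from it. DESeq2 also called 0 members higher and 8 lower, among 2444 calls over all genes. Between Esrrb+Nanog and Nanog-null cells, 10 were higher in Esrrb+Nanog cells and 15 were lower, or 61%, against 54.4% of all genes (27.2% in each direction) and 41.3% of long noncoding genes. Without Nanog-null replicate 2 the counts higher and lower were 9 and 9 for Esrrb against Nanog-null, 0 and 7 for Esrrb+Nanog against Esrrb, and 8 and 16 for Esrrb+Nanog against Nanog-null. Lines without overlap of libraries were common. For Esrrb against Nanog-null, 13 of the 41 lay wholly above and 11 wholly below, against 4766 and 4698 of 16198 genes. For Esrrb+Nanog against Esrrb these were 3 and 10, against 2416 and 2700. For Esrrb+Nanog against Nanog-null they were 11 and 16, against 5059 and 4973. Separation of all 3 lines was not counted over all genes.

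By their titles, the lines differ in added Esrrb and then in added Nanog, but the levels of both genes differed in each comparison, as given above. Most of the calls were of pluripotency-associated RNAs, which made up 24 of the 41 tested members. Of these 24, 10 were higher and 6 lower in Esrrb than in Nanog-null cells, or 66.7%. That stands against 48.5% of all tested genes and 36.9% of long noncoding genes. The median log2 change was 0.31 against 0.01 over all genes. In the Esrrb+Nanog line 0 were higher and 8 lower against the Esrrb line, or 33.3%. That stands against 13.2% of all genes and 8.11% of long noncoding genes. The median was -0.37 against -0.01 over all genes. Against the Nanog-null line 8 were higher and 12 lower in the Esrrb+Nanog line, or 83.3%. The shares there were 54.4% of all genes and 41.3% of long noncoding genes. The median was -0.53 against 0.00 over all genes. Called changes over 2-fold numbered 9, 5 and 9 of the 24 in these comparisons, against 16%, 3.6% and 18.5% of all tested genes. Over the 1061 tested long noncoding genes they numbered 269, 53 and 296. The comparisons share libraries, so their counts are not independent of each other.

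**Figure D2:**
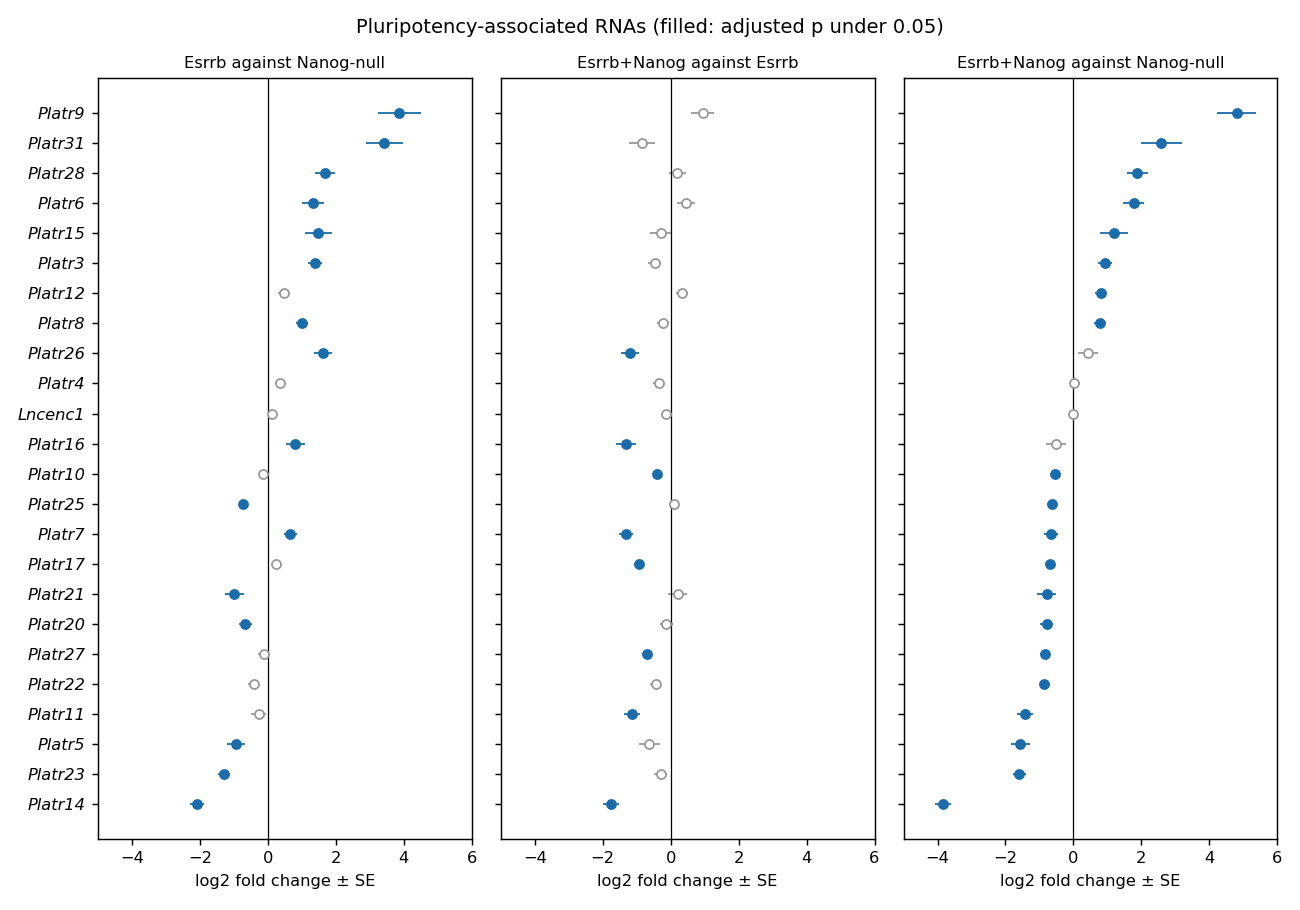
Log2 fold change with its standard error for the 24 tested pluripotency-associated RNAs, in 3 panels for Esrrb against Nanog-null, Esrrb+Nanog against Esrrb, and Esrrb+Nanog against Nanog-null. Filled points passed an adjusted p of 0.05 and open points did not. All 8 filled points of the middle panel lie left of 0.

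Among RNAs that averaged above 1 CPM in every line, Platr14 had the largest log2 changes. Platr9, given below, averaged 1.21 CPM in the Esrrb+Nanog line and 0.0377 CPM in the Nanog-null line. Its fitted log2 change between them was larger, at 4.81. Platr14 (ENSMUSG00000086454, chr2:104559163-104571429, plus strand) was at 6.65, 4.75 and 5.64 CPM in the Esrrb+Nanog line, 22.8, 12.3 and 22.6 CPM in the Esrrb line, and 94.8, 65.9 and 84.7 CPM in the Nanog-null line. The 3 lines did not overlap, and the mean in the Nanog-null line was 81.8 ± 14.6 CPM against 5.68 ± 0.95 CPM in the Esrrb+Nanog line (SD, n = 3 each). The log2 change was -2.09 ± 0.21 (SE) for Esrrb against Nanog-null (adjusted p = 1.08e-05) and -1.75 ± 0.24 for Esrrb+Nanog against Esrrb (adjusted p = 0.000745). For Esrrb+Nanog against Nanog-null it was -3.84 ± 0.24 (adjusted p = 2.23e-07). The marker levels given above also moved between these lines, and their part in this change was not tested.

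Platr23 and Platr5 were also highest in the Nanog-null line. Platr23 (chr1:136622098-136624650, minus strand) was at 1.92, 2.90 and 2.80 CPM in the Esrrb+Nanog line, 3.32, 2.86 and 3.15 CPM in the Esrrb line and 9.27, 6.86 and 6.89 CPM in the Nanog-null line. Its log2 change was -1.30 ± 0.18 for Esrrb against Nanog-null (adjusted p = 0.000144), -0.29 ± 0.20 for Esrrb+Nanog against Esrrb (adjusted p = 0.373) and -1.59 ± 0.19 for Esrrb+Nanog against Nanog-null (adjusted p = 2.93e-05). The Nanog-null libraries lay above all 6 others, which overlapped. Platr5, a low RNA, was at 0.443 to 1.05 CPM in the Esrrb+Nanog line, 0.845 to 1.38 CPM in the Esrrb line and 2.12 to 2.32 CPM in the Nanog-null line, and was called against Nanog-null at log2 changes of -1.56 for Esrrb+Nanog and -0.93 for Esrrb. Platr20, Platr21 and Platr25 were lower in the Esrrb line than in the Nanog-null line by log2 changes of -0.66, -0.99 and -0.73. The Esrrb+Nanog line was also lower than Nanog-null in these RNAs, by -0.79, -0.79 and -0.64. Leaving out any 1 of the Esrrb+Nanog libraries, or Nanog-null replicate 1 or 3, ended the Platr21 call in the Esrrb+Nanog line (adjusted p from 0.0542 to 0.0721).

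Others were lower in the Esrrb+Nanog line than in the Esrrb line and were not called lower in the Esrrb line than in the Nanog-null line. Platr7 (chr10:84547417-84553338, minus strand) was at 7.57, 9.61 and 10.6 CPM in the Esrrb+Nanog line, 22.2, 16.7 and 30.4 CPM in the Esrrb line, and 14.9, 13.2 and 15.8 CPM in the Nanog-null line. The lines did not overlap, with the Esrrb line highest and the Esrrb+Nanog line lowest. Its log2 change was 0.66 ± 0.19 for Esrrb against Nanog-null (adjusted p = 0.0132), -1.32 ± 0.20 for Esrrb+Nanog against Esrrb (adjusted p = 0.00131) and -0.66 ± 0.20 for Esrrb+Nanog against Nanog-null (adjusted p = 0.014). The call for Esrrb against Nanog-null ended without Esrrb replicate 3, where the log2 change was 0.41 (adjusted p = 0.0516), and without Nanog-null replicate 2 (adjusted p = 0.0533).

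Platr26, Platr16 and Platr17 were likewise lower in the Esrrb+Nanog line than in the Esrrb line. Platr26 was at 0.775, 1.25 and 1.44 CPM in the Esrrb+Nanog line, 3.21, 2.08 and 2.69 CPM in the Esrrb line and 0.927, 0.732 and 0.903 CPM in the Nanog-null line. Its log2 change was 1.63 ± 0.27 for Esrrb against Nanog-null (adjusted p = 0.000375) and -1.20 ± 0.25 for Esrrb+Nanog against Esrrb (adjusted p = 0.00974). The second call ended without Esrrb replicate 1, where the log2 change was -1.04 (adjusted p = 0.0515), and for Esrrb+Nanog against Nanog-null the RNA was not called (0.43 ± 0.29, adjusted p = 0.225). Only the Esrrb libraries stood apart for Platr26, while the Esrrb+Nanog and Nanog-null libraries overlapped.

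Platr16 was at 1.18, 2.45 and 3.43 CPM in the Esrrb+Nanog line, 5.11, 5.57 and 7.03 CPM in the Esrrb line and 3.24, 2.85 and 3.98 CPM in the Nanog-null line. Its log2 fold change was 0.81 ± 0.28 for Esrrb against Nanog-null (adjusted p = 0.0341) and -1.32 ± 0.29 for Esrrb+Nanog against Esrrb (adjusted p = 0.0125). The first call ended without Esrrb replicate 3 (0.102), Nanog-null replicate 1 (0.0887) or Nanog-null replicate 2 (0.112), given as adjusted p. Platr16 shares 43.6% of its exon bases with the pseudogene Gm13230, so its reads may be divided between them. Platr17 was at 7.20, 10.1 and 9.84 CPM in the Esrrb+Nanog line, 19.0, 16.5 and 16.6 CPM in the Esrrb line and 15.3, 14.0 and 14.8 CPM in the Nanog-null line. The Esrrb+Nanog libraries lay below all others, with a log2 change of -0.94 ± 0.13 against the Esrrb line (adjusted p = 0.000803) and -0.70 ± 0.13 against Nanog-null (adjusted p = 0.000739).

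Platr11, Platr27 and Platr10 were lower in the Esrrb+Nanog line than in both other lines. Platr11 was at 1.44, 1.29 and 2.24 CPM in the Esrrb+Nanog line, 4.04, 2.86 and 4.23 CPM in the Esrrb line and 4.54, 4.89 and 4.01 CPM in the Nanog-null line. The Esrrb+Nanog libraries again lay below all others, by a log2 change of -1.15 ± 0.23 against Esrrb (adjusted p = 0.00767) and -1.42 ± 0.23 against Nanog-null (adjusted p = 0.000296). For Platr27 the log2 changes were -0.71 ± 0.15 against Esrrb and -0.84 ± 0.15 against Nanog-null. Platr10, the second most abundant per kilobase, was at 83.9, 95.8 and 115 CPM in the Esrrb+Nanog line, 137, 109.9 and 142 CPM in the Esrrb line and 156, 136 and 138 CPM in the Nanog-null line. Esrrb+Nanog and Esrrb libraries overlapped, and the change was small, -0.40 ± 0.12 against Esrrb (adjusted p = 0.0482) and -0.54 ± 0.12 against Nanog-null (adjusted p = 0.00225). The call against Esrrb ended when any 1 library other than Esrrb replicate 2 or Esrrb+Nanog replicate 3 was left out (adjusted p from 0.0562 to 0.162), with library totals alone (0.0638) and with only the 2 lines fitted (0.0823).

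**Figure D3:**
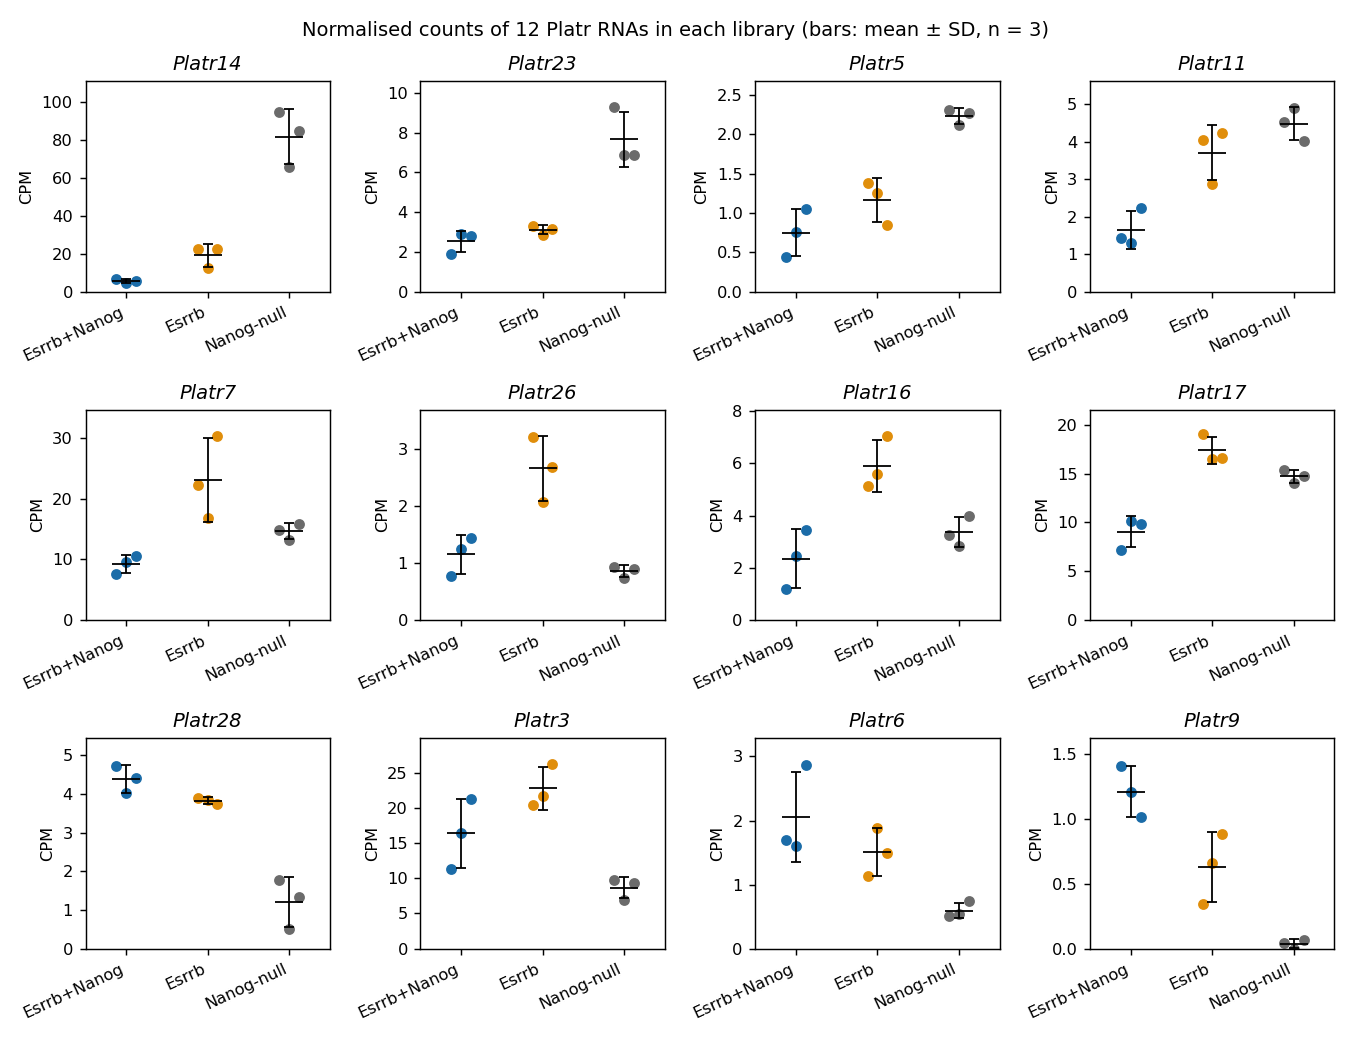
CPM in each library for 12 Platr RNAs, with Esrrb+Nanog, Esrrb and Nanog-null libraries from left to right; bars are mean ± SD, n = 3 each. In the top row the Nanog-null line is highest, in the middle row the Esrrb line is highest, and in the bottom row the Nanog-null line is lowest.

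Several Platr RNAs were higher where Esrrb was added, with or without Nanog. Platr28 (chr7:107243022-107300396, plus strand) was at 4.73, 4.02 and 4.41 CPM in the Esrrb+Nanog line, 3.90, 3.84 and 3.73 CPM in the Esrrb line and 1.76, 0.501 and 1.34 CPM in the Nanog-null line. The Nanog-null libraries lay below all others, with a log2 change of 1.69 ± 0.30 for Esrrb against Nanog-null (adjusted p = 0.000646) and 1.89 ± 0.30 for Esrrb+Nanog against Nanog-null (adjusted p = 0.000226). Platr3, a short RNA, was at 11.4, 16.5 and 21.2 CPM in the Esrrb+Nanog line, 20.4, 21.6 and 26.2 CPM in the Esrrb line and 9.73, 6.97 and 9.33 CPM in the Nanog-null line. The fitted log2 change was 1.39 ± 0.21 for Esrrb against Nanog-null (adjusted p = 0.000185) and 0.92 ± 0.21 for Esrrb+Nanog against Nanog-null (adjusted p = 0.0027). The Esrrb+Nanog and Esrrb libraries overlapped for Platr3, with a log2 change of -0.47 ± 0.20 that missed the threshold (adjusted p = 0.139).

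Platr6, Platr8 and Platr12 stood lowest in the Nanog-null line as well. Platr6 was at 1.70, 1.61 and 2.87 CPM in the Esrrb+Nanog line, 1.14, 1.89 and 1.498 CPM in the Esrrb line and 0.51, 0.539 and 0.736 CPM in the Nanog-null line, with log2 changes of 1.77 and 1.32 for Esrrb+Nanog and Esrrb against Nanog-null. Platr8 rose in both, by log2 changes of 0.77 and 1.00. Platr12 passed the test for Esrrb+Nanog against Nanog-null (0.82 ± 0.18, adjusted p = 0.00263), while for Esrrb against Nanog-null it was at 0.47 ± 0.19 (adjusted p = 0.0518).

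Among the rarest, Platr9 had 38, 30 and 29 counts in the Esrrb+Nanog libraries, 10, 21 and 23 counts in the Esrrb libraries, and 1, 0 and 2 counts in the Nanog-null libraries. Scaled for library size, the ratio was 31.1 for Esrrb+Nanog against Nanog-null (95% exact interval 10.3 to 153) and 16.1 for Esrrb against Nanog-null (5.21 to 80.3), covering counting error only. The Nanog-null line was near 0 in every library. Platr31 had 11, 10 and 12 counts in the Esrrb+Nanog line, 15, 28 and 21 counts in the Esrrb line and 1, 0 and 4 counts in the Nanog-null line, and it was called higher in both. Its log2 change for Esrrb+Nanog against Nanog-null was 2.59 ± 0.61, and 4.0 without Nanog-null replicate 3. Platr15 was called higher too, by log2 changes of 1.20 for Esrrb+Nanog and 1.48 for Esrrb against Nanog-null. Its Esrrb+Nanog call ended under DESeq2 (adjusted p = 0.0844) and without Esrrb+Nanog replicate 3 (0.131), Nanog-null replicate 2 (0.104) or Nanog-null replicate 3 (0.0804).

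The most abundant of all, Lncenc1 (ENSMUSG00000078952, chr13:97434970-97497007, plus strand), was not called in any comparison. Its libraries read 569, 519 and 569 CPM in the Esrrb+Nanog line, 595, 555 and 680 CPM in the Esrrb line and 619, 503 and 557 CPM in the Nanog-null line, and the lines overlapped. The log2 change was 0.12 ± 0.09 for Esrrb against Nanog-null (adjusted p = 0.274), -0.14 ± 0.09 for Esrrb+Nanog against Esrrb (adjusted p = 0.335) and -0.02 ± 0.09 for Esrrb+Nanog against Nanog-null (adjusted p = 0.881). Platr4 was likewise not called, with log2 changes of 0.37, -0.34 and 0.03. Platr22 passed the test for Esrrb+Nanog against Nanog-null (-0.86 ± 0.17, adjusted p = 0.00104), and for Esrrb against Nanog-null it was at -0.42 ± 0.16 (adjusted p = 0.0506).

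The snoRNA hosts moved within a narrow range, and 25% were called against Nanog-null in either line, against 48.5% (Esrrb) and 54.4% (Esrrb+Nanog) of all tested genes. For Esrrb against Nanog-null, 1 of 12 was higher (Snhg15) and 2 were lower (Gas5 and Snhg1), and log2 changes ran from -0.39 to 0.65 with a median of -0.06. For Esrrb+Nanog against Esrrb, edgeR called none, and log2 changes ran from -0.04 to 0.19 with a median of 0.02. For Esrrb+Nanog against Nanog-null the called hosts were again Snhg15 higher and Gas5 and Snhg1 lower. The largest log2 change in size, that of Snhg10 for Esrrb+Nanog against Nanog-null, was 0.68 ± 0.31 and not called (adjusted p = 0.084). Snhg10 lay at 0.463 to 1.14 CPM over all 9 libraries.

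Gas5, whose RNA builds up in growth-arrested cells, carries snoRNAs of the C/D class. Gas5 (ENSMUSG00000053332, chr1:161034422-161038539, plus strand) was at 195, 197 and 173 CPM in the Esrrb+Nanog line, 177, 192 and 191 CPM in the Esrrb line and 232, 250.1 and 238 CPM in the Nanog-null line. All 3 Nanog-null libraries lay above the 6 others. The log2 change was -0.36 ± 0.07 for Esrrb against Nanog-null (adjusted p = 0.000753) and -0.35 ± 0.07 for Esrrb+Nanog against Nanog-null (adjusted p = 0.000796), with 0.01 ± 0.07 for Esrrb+Nanog against Esrrb (adjusted p = 0.922). The sequences of its start and of Snhg1's are given above.

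Snhg1 (chr19:8723475-8726443, plus strand), the host long known as U22 host gene, was at 115, 125 and 99.9 CPM in the Esrrb+Nanog line, 112, 130 and 108 CPM in the Esrrb line and 134, 153 and 142 CPM in the Nanog-null line. Its log2 fold change was -0.29 ± 0.09 for Esrrb against Nanog-null (adjusted p = 0.0205) and -0.34 ± 0.09 for Esrrb+Nanog against Nanog-null (adjusted p = 0.00891). The first call ended without Esrrb replicate 1 (adjusted p = 0.0758), Esrrb replicate 3 (0.0739) or Nanog-null replicate 2 (0.0698). Snhg15 went the other way, with 26.2, 29.0 and 24.8 CPM in the Esrrb+Nanog line, 25.7, 31.7 and 23.2 CPM in the Esrrb line and 18.4, 23.3 and 18.7 CPM in the Nanog-null line. The Esrrb and Nanog-null libraries overlapped for Snhg15, at a log2 change of 0.42 ± 0.13 (adjusted p = 0.0183). That call ended without Esrrb replicate 2 (adjusted p = 0.0773), Nanog-null replicate 1 (0.0888) or Nanog-null replicate 3 (0.0974). The Esrrb+Nanog call for Snhg15 (0.40 ± 0.13, adjusted p = 0.0193) ended without Esrrb+Nanog replicate 2 (0.0741), Nanog-null replicate 1 (0.0861) or Nanog-null replicate 3 (0.0924). Snhg5, the most abundant host per kilobase after Gas5, was at 82.4, 101 and 91.5 CPM in the Esrrb+Nanog line, 91.6, 105 and 85.5 CPM in the Esrrb line and 87.1, 89.7 and 93.6 CPM in the Nanog-null line, which overlapped throughout.

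**Figure D4:**
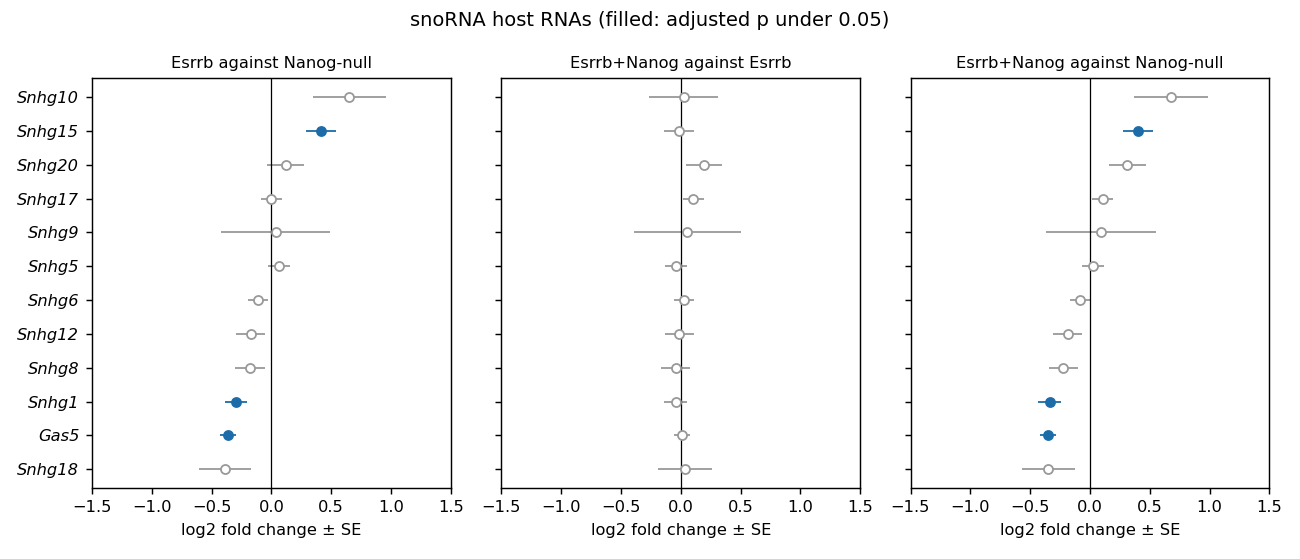
Log2 fold change with its standard error for the 12 snoRNA hosts, in the same 3 comparisons and with the same filled and open points as for the Platr RNAs. In the left and right panels Snhg15 is filled right of 0 and Gas5 and Snhg1 are filled left of 0, and in the middle panel all points are open.

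The snoRNAs inside these hosts could be read only in part. The annotation places 33 snoRNA genes inside 10 of the 12 hosts, 10 of them in Gas5, 8 in Snhg1 and 5 in Snhg12. Of these, 30 overlap bases annotated as host exon in some transcript, and together they had 2 counts in the 9 libraries. The 3 outside host exons had 441 counts. Snord87 in Snhg6 had 16, 33 and 28 counts in the Esrrb+Nanog libraries, 22, 62 and 26 counts in the Esrrb libraries and 20, 27 and 28 counts in the Nanog-null libraries. Snora78 in Snhg9 had 23, 27 and 19 counts in the Esrrb+Nanog libraries, 17, 33 and 15 counts in the Esrrb libraries and 6, 13 and 23 counts in the Nanog-null libraries. Counts of both overlapped between the lines. They are shown as the only snoRNAs of these hosts with more than 3 counts; the sequences are GENCODE M21 transcripts, with capitals for the C box and D box of Snord87 and for the ACA box of Snora78.
Snord87, chr1:9942463-9942549, minus strand: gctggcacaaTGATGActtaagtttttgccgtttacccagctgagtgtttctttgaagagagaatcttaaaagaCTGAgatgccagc
Snora78, chr17:24719676-24719803, minus strand: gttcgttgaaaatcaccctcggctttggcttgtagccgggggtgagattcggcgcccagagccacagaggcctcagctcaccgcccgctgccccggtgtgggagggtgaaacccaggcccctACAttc

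Counts for the protein lists that follow stand beside the same shares of all tested genes: 48.5% for Esrrb against Nanog-null, 13.2% for Esrrb+Nanog against Esrrb and 54.4% for Esrrb+Nanog against Nanog-null. The protein partners of snoRNAs changed little in size. Of 7 C/D box proteins, 2 were higher in the Esrrb line than in the Nanog-null line: Snu13, which binds the C/D motif, at a log2 change of 0.37 ± 0.10, and the assembly factor Nufip1 at 0.21 ± 0.07. Of 6 H/ACA box proteins, 3 were higher (Dkc1, the pseudouridine synthase, Nop10 and Shq1) and 1 was lower, the assembly factor Naf1. Nop10 averaged 112 ± 17.6 CPM in the Esrrb+Nanog line, 105 ± 2.20 CPM in the Esrrb line and 79.0 ± 1.24 CPM in the Nanog-null line. Naf1 averaged 102 ± 7.35 CPM in the Esrrb+Nanog line, 111 ± 5.86 CPM in the Esrrb line and 137 ± 6.11 CPM in the Nanog-null line (SD, n = 3 each). For Esrrb+Nanog against Nanog-null, Snu13, Nufip1, Dkc1, Nop10 and Shq1 were again called higher and Naf1 lower, and edgeR called none of the 13 for Esrrb+Nanog against Esrrb. The list medians for Esrrb against Nanog-null were -0.02 (C/D) and 0.22 (H/ACA), against 0.01 over all genes. The Nufip1 calls ended with several libraries left out, for example at an adjusted p of 0.108 (Esrrb) and 0.174 (Esrrb+Nanog) without Nanog-null replicate 2.

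Of 10 factors of nonsense-mediated decay, 4 were higher (Upf2, Upf3a, Smg5 and Smg8) and 1 was lower (Smg9) in the Esrrb line than in the Nanog-null line, with a list median of 0.16. These 5 of 10 are near the share of all genes called, 48.5%. Against Nanog-null, 5 were higher in the Esrrb+Nanog line and 0 lower, with a median of 0.23. Upf2, a core adaptor of the pathway, averaged 111 ± 1.51 CPM in the Esrrb+Nanog line, 104 ± 4.37 CPM in the Esrrb line and 80.2 ± 6.02 CPM in the Nanog-null line. Smg5, which recruits decay enzymes to the marked RNA, rose by 0.33 ± 0.06 for Esrrb+Nanog against Nanog-null (adjusted p = 0.000433) and by 0.18 ± 0.06 for Esrrb against Nanog-null (adjusted p = 0.0227). The second of these calls ended when any 1 of the Nanog-null libraries, Esrrb replicate 1 or Esrrb replicate 2 was left out (adjusted p from 0.0536 to 0.123), with library totals alone (0.0678) and with no low-count filter (0.0606). Between Esrrb+Nanog and Esrrb cells edgeR called none of the 10.

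Of the microRNA hosts, Mir17hg was lower in both other lines than in the Nanog-null line. Levels of Mir17hg were 31.9, 37.4 and 37.9 CPM in the Esrrb+Nanog line, 39.1, 40.9 and 47.3 CPM in the Esrrb line and 49.9, 54.3 and 59.1 CPM in the Nanog-null line. The 3 lines did not overlap. The log2 change was -0.36 ± 0.10 for Esrrb against Nanog-null (adjusted p = 0.00894) and -0.61 ± 0.10 for Esrrb+Nanog against Nanog-null (adjusted p = 0.000272), while for Esrrb+Nanog against Esrrb it was -0.25 ± 0.10 and missed the threshold (adjusted p = 0.124). These counts are of the host, and the mature microRNAs printed above were not measured. Dleu2 was at 5.17, 4.10 and 6.34 CPM in the Esrrb+Nanog line, 4.70, 4.50 and 6.53 CPM in the Esrrb line and 4.50, 2.43 and 4.82 CPM in the Nanog-null line, which overlapped, and it was not called in any comparison.

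Of 6 genes that process microRNAs, 2 were higher (Ago2 and Tarbp2) and 2 were lower (Dicer1 and Drosha) in the Esrrb line than in the Nanog-null line, with a median of -0.10. Dicer1, which cuts the precursor hairpin, averaged 201 ± 21.2 CPM in the Esrrb+Nanog line, 250.3 ± 19.8 CPM in the Esrrb line and 322 ± 29.3 CPM in the Nanog-null line. It was the only one of the 6 called for Esrrb+Nanog against Esrrb (-0.32 ± 0.09, adjusted p = 0.0406), and against Nanog-null its log2 change was -0.68 ± 0.09. The call against Esrrb ended without Esrrb replicate 1 (0.148) or 3 (0.115), Esrrb+Nanog replicate 2 (0.156) or 3 (0.108) or Nanog-null replicate 3 (0.0619), given as adjusted p, with library totals alone (0.0933) and with only the 2 lines fitted (0.0558). Tarbp2, the partner of Dicer, averaged 63.9 ± 5.05 CPM in the Esrrb+Nanog line, 62.4 ± 8.48 CPM in the Esrrb line and 44.3 ± 2.52 CPM in the Nanog-null line. For Esrrb+Nanog against Nanog-null 2 were higher (Ago2 and Tarbp2) and 3 lower (Dicer1, Drosha and the nuclear exporter Xpo5, at -0.25 ± 0.06), with a median of -0.11.

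Malat1 and Neat1 are neighbours on chromosome 19, and their median coefficient of variation was 27.2%, 15.3% and 42.0% in the Esrrb+Nanog, Esrrb and Nanog-null lines. Malat1 (chr19:5795690-5802672, minus strand) was at 303, 197 and 235 CPM in the Esrrb+Nanog line, 251, 177 and 269 CPM in the Esrrb line and 634, 285 and 269 CPM in the Nanog-null line. Nanog-null replicate 1 held the highest level by far, and the other Nanog-null libraries lay within or near the range of the other lines. The log2 change for Esrrb against Nanog-null was -0.77 ± 0.29 (adjusted p = 0.046), and without Nanog-null replicate 1 it was -0.28 (adjusted p = 0.243). The call also ended without Esrrb replicate 1 (0.0786) or 2 (0.138), without Esrrb+Nanog replicate 2 (0.0501) or 3 (0.0572), under DESeq2 (0.105) and with only the 2 lines fitted (0.0589), given as adjusted p. In the Esrrb+Nanog line relative to the Nanog-null line the change was -0.69 ± 0.29 (adjusted p = 0.0618).

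Neat1 (chr19:5824708-5845478, minus strand) was at 133, 83.7 and 73.8 CPM in the Esrrb+Nanog line, 88.8, 75.8 and 91.1 CPM in the Esrrb line and 59.1, 38.1 and 74.6 CPM in the Nanog-null line. The Esrrb+Nanog and Nanog-null libraries overlapped narrowly. The log2 change for Esrrb+Nanog against Nanog-null was 0.75 ± 0.23 (adjusted p = 0.017), and the call ended without Esrrb+Nanog replicate 1 (0.45, adjusted p = 0.0804) or Nanog-null replicate 2 (0.52, adjusted p = 0.0592). For Esrrb against Nanog-null it was 0.57 ± 0.23 (adjusted p = 0.0627) and for Esrrb+Nanog against Esrrb 0.18 ± 0.23 (adjusted p = 0.659).

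Among 7 paraspeckle proteins, Nono, one of the core proteins that bind Neat1, was lower in all 3 comparisons. Nono averaged 388 ± 12.9 CPM in the Esrrb+Nanog line, 451 ± 17.8 CPM in the Esrrb line and 546 ± 6.50 CPM in the Nanog-null line. The fitted log2 change was -0.27 ± 0.05 for Esrrb against Nanog-null, -0.22 ± 0.05 for Esrrb+Nanog against Esrrb (adjusted p = 0.0198) and -0.49 ± 0.05 for Esrrb+Nanog against Nanog-null. The call against Esrrb ended without Esrrb+Nanog replicate 1 (0.0548) or 2 (0.0605), without Esrrb replicate 1 (0.0746) or 3 (0.0755), with library totals alone (0.0521) and with only the 2 lines fitted (0.0521), given as adjusted p. Rbm14 was called higher for Esrrb+Nanog against Nanog-null (0.24 ± 0.07), but not without Esrrb+Nanog replicate 3 (adjusted p = 0.0527), and the other 5 were not called. Of 5 nuclear speckle proteins, 4 were higher and 0 lower in the Esrrb line than in the Nanog-null line (Son, Srsf1, Srsf2 and Srsf3), with a median of 0.22. For Esrrb+Nanog against Nanog-null 2 were higher (Son and Srsf2) and 0 lower, with a median of 0.14, and for Esrrb+Nanog against Esrrb edgeR called none, with a median of -0.08. The Srsf2 call for Esrrb+Nanog against Nanog-null (0.15, adjusted p = 0.0415) ended without any 1 of the Nanog-null libraries, Esrrb+Nanog replicate 2 or 3, or Esrrb replicate 1 (adjusted p from 0.0613 to 0.165). Son, a scaffold of speckles, averaged 551 ± 15.97 CPM in the Esrrb+Nanog line, 509 ± 3.53 CPM in the Esrrb line and 429 ± 35.5 CPM in the Nanog-null line.

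Tug1, a ubiquitous RNA that starts 482 bases from Morc2a on the other strand, was not called in any comparison. Its libraries read 193, 171 and 176 CPM in the Esrrb+Nanog line, 174, 168 and 195 CPM in the Esrrb line and 170.3, 144 and 162 CPM in the Nanog-null line. The Nanog-null libraries lay below the Esrrb+Nanog libraries by a small margin, at a log2 change of 0.18 ± 0.08 (adjusted p = 0.0767).

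**Figure D5:**
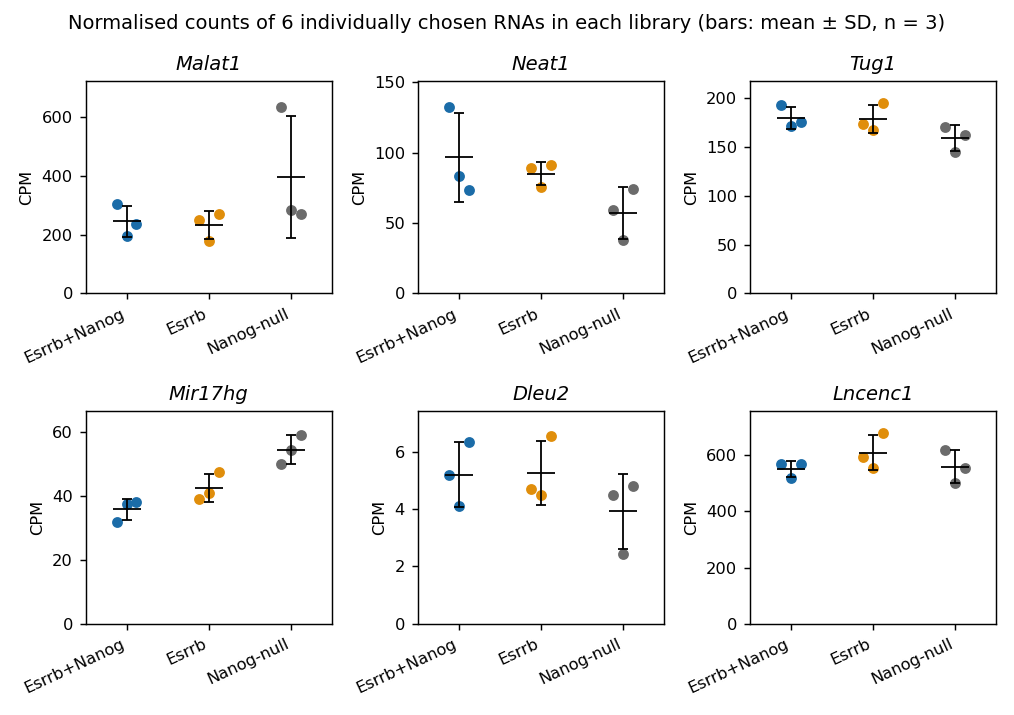
CPM in each library for Malat1, Neat1, Tug1, Mir17hg, Dleu2 and Lncenc1, with Esrrb+Nanog, Esrrb and Nanog-null libraries from left to right; bars are mean ± SD, n = 3 each. One Nanog-null library of Malat1 stands at 634 CPM above all others, and Mir17hg has 3 lines that do not overlap.

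Each member was set beside its nearest protein-coding gene, by distance between annotated starts. For 34 of the pairs both genes could be tested. For Esrrb against Nanog-null both were called in 11 pairs, 9 in the same direction and 2 in opposite directions. Between Esrrb+Nanog and Esrrb cells both were called in 0 pairs. Between Esrrb+Nanog and Nanog-null cells both were called in 11 pairs, 7 in the same direction and 4 in opposite directions. Against Nanog-null, 48.5% (Esrrb) and 54.4% (Esrrb+Nanog) of all tested genes were called, and the same counts over pairs of other neighbouring genes were not computed, so nothing particular to these pairs can be read from them. In 7 pairs the genes lie on opposite strands with starts within 1000 bases: Tug1, Platr20, Platr23, Gas5, Snhg1, Snhg10 and Snhg18. No source used here states whether counting used strand. Where such a pair overlaps, its reads cannot be told apart.

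Platr5 lies 52669 bases from Arl4c, a small GTPase gene. Arl4c was at 7.49, 5.91 and 5.43 CPM in the Esrrb+Nanog line, 25.5, 12.7 and 22.3 CPM in the Esrrb line and 89.4, 124 and 92.4 CPM in the Nanog-null line. The lines did not overlap, and the log2 change was -2.34 for Esrrb against Nanog-null, -1.68 for Esrrb+Nanog against Esrrb and -4.02 for Esrrb+Nanog against Nanog-null, all called. Beside it, Platr5 was at -0.93, -0.63 and -1.56, with the middle value not called (adjusted p = 0.204).

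Platr14 and its neighbour Cstf3, a subunit of the cleavage stimulation factor, went in opposite directions. Cstf3 averaged 110 ± 3.08 CPM in the Esrrb+Nanog line, 107 ± 5.62 CPM in the Esrrb line and 91.5 ± 4.42 CPM in the Nanog-null line, and was called higher against Nanog-null at 0.26 for Esrrb+Nanog and 0.22 for Esrrb (0.17, adjusted p = 0.0602, without Nanog-null replicate 2). Platr23 starts 251 bases from Zfp281, a zinc finger regulator of stem cells, on the other strand. Zfp281 averaged 210 ± 4.91 CPM in the Esrrb+Nanog line, 229 ± 14.2 CPM in the Esrrb line and 245 ± 17.1 CPM in the Nanog-null line. It was called lower for Esrrb+Nanog against Nanog-null alone (-0.22, adjusted p = 0.0161, and 0.0541 without Esrrb+Nanog replicate 2), while Platr23 was at -1.59 there.

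Platr31 overlaps Tigar, which limits glycolytic flux, on the opposite strand and shares 122 exon bases with it. Tigar averaged 121 ± 10.9 CPM in the Esrrb+Nanog line, 99.9 ± 7.31 CPM in the Esrrb line and 55.8 ± 2.96 CPM in the Nanog-null line, so reads of the shared bases cannot be assigned to Platr31. Platr26 lies 26199 bases from Itga6, the laminin receptor subunit alpha 6. Itga6 averaged 295 ± 13.0 CPM in the Esrrb+Nanog line, 299 ± 19.9 CPM in the Esrrb line and 191 ± 5.39 CPM in the Nanog-null line. Itga6 was at -0.01 for Esrrb+Nanog against Esrrb (adjusted p = 0.91), where Platr26 was lower by a log2 change of -1.20.

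The neighbour of Platr7, Ckap4, a membrane protein of the endoplasmic reticulum, averaged 161 ± 10.98 CPM in the Esrrb+Nanog line, 152 ± 11.9 CPM in the Esrrb line and 92.6 ± 9.50 CPM in the Nanog-null line. It was called higher for Esrrb+Nanog against Nanog-null (0.80), where Platr7 was lower (-0.66). Cga, which overlaps Platr9 on the other strand with 305 shared exon bases, averaged at most 0.0251 CPM in any line. Beside the hosts, Slc3a2, an amino acid transporter subunit whose start lies 106 bases from Snhg1, was called lower for Esrrb against Nanog-null (-0.24, adjusted p = 0.0462). Its call ended without Esrrb replicate 2 (-0.13, adjusted p = 0.161), Esrrb+Nanog replicate 2 (0.0635) or Nanog-null replicate 2 (0.101) or 3 (0.0753). Zbtb37, 427 bases from Gas5, was not called in any comparison. Myo1g, a myosin gene near Snhg15, averaged 8.74 ± 2.36 CPM in the Esrrb+Nanog line, 5.46 ± 1.71 CPM in the Esrrb line and 1.68 ± 0.15 CPM in the Nanog-null line, with log2 changes of 2.37 for Esrrb+Nanog and 1.70 for Esrrb against Nanog-null.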

How the data were processed

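The authors deposited whole-number read counts per Ensembl gene, not normalized, as the values show. The submitters' processing notes name bcl2fastq 2.19.1, STAR 2.5.3a and mm10; annotation, counting program and strand setting were not given in the sources used here. Of 15 library columns, 9 matched the samples and 6 were not used. Symbols were found for 52403 of 52636 IDs, and 52489 IDs were in GENCODE M21 (mm10). No replicates had identical values.

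The tool was edgeR 4.0.16 in R 4.3.3, with limma 3.58.1. It used its default low-count filter, trimmed mean of M values scaling and a quasi-likelihood model of the 9 libraries with 1 factor, the line. P-values were adjusted by Benjamini-Hochberg over 16198 genes, with a threshold of 0.05. Standard errors were derived from the F statistics. DESeq2 1.42.0 was an alternative. The procedure was also run on simulated data, and that outcome is not reported here.

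Members, the 10 gene lists and the rule for named genes were chosen with earlier results of these data known. Named were the genes given by name in the choice of members, the 6 largest called changes per direction above 1 CPM, the 6 highest levels per kilobase, 2 genes per list, and neighbours. The other members named, among them Platr4, Platr15, Platr20, Platr31, Snhg10 and Snhg15, were chosen after their values were seen.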

Additional observations from a re-analysis of the deposited data

How the results depend on the processing

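No member call reversed under 16 alternative settings, and 16 of 21 calls for Esrrb against Nanog-null, 6 of 8 for Esrrb+Nanog against Esrrb and 21 of 25 for Esrrb+Nanog against Nanog-null passed in each of them. The settings were median-of-ratios factors, no low-count filter, library totals alone, DESeq2, a stricter filter (at least 1 CPM in 3 samples), only the 2 lines compared, a replicate block, and each of 9 libraries left out. With 1 library left out, members higher and lower numbered 9 to 13 and 8 to 11 for Esrrb against Nanog-null, 0 and 6 to 9 for Esrrb+Nanog against Esrrb, and 8 to 12 and 14 to 16 for Esrrb+Nanog against Nanog-null. With no low-count filter, 1 member, Platr9, was higher for Esrrb+Nanog against Esrrb. Calls over all genes numbered 2135 in that comparison, ranged from 1105 to 2374 with 1 library left out, and were 1215 without Esrrb+Nanog replicate 2, 1105 without Esrrb replicate 1 and 1378 without Esrrb replicate 3.

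Same-numbered libraries correlated by -0.025 to 0.278 in their deviations from the line means, and differently numbered ones by -0.329 to 0.224. These ranges overlap, so they do not settle whether replicate numbers pair the libraries. A replicate block gave 7997, 2381 and 8946 calls over all genes, against 7849, 2135 and 8816 without it, in the order of comparisons that follows. With the replicate block, members higher and lower were 14 and 11 for Esrrb against Nanog-null, 0 and 9 for Esrrb+Nanog against Esrrb, and 12 and 16 for Esrrb+Nanog against Nanog-null. The block added the following member calls, given with adjusted p: Mir17hg for Esrrb+Nanog against Esrrb (0.0368), Malat1 (0.0113), Tug1 (0.0409) and Dleu2 (0.04998) for Esrrb+Nanog against Nanog-null, and Dleu2 (0.0456), Neat1 (0.0209) and Platr22 (0.0494), and also Platr4, for Esrrb against Nanog-null. It ended the Esrrb+Nanog against Nanog-null calls of Nufip1 (0.0689) and Srsf2 (0.0641).

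Uncalled log2 changes near 0 changed sign, and the cause was not tested. With library totals alone these were, for Esrrb+Nanog against Esrrb, Snhg5 (0.0244), Snhg1 (0.0217), Dleu2 (0.0587) and Nufip1 (0.0233), and for Esrrb+Nanog against Nanog-null Lncenc1 (0.0119). Dleu2 for Esrrb+Nanog against Esrrb did so with no low-count filter (0.0027) and with only the 2 lines fitted (0.00479). With 1 library left out, log2 changes for Esrrb+Nanog against Esrrb ran from -0.171 to 0.181 for Dleu2, -0.0239 to 0.0706 for Gas5, -0.0958 to 0.211 for Malat1, -0.103 to 0.345 for Neat1, -0.119 to 0.0398 for Snhg1, -0.114 to 0.0494 for Snhg5, -0.0355 to 0.0757 for Tug1, -0.1 to 0.684 for Platr21 and -0.00721 to 0.164 for Platr25. They ran from -0.0214 to 0.214 for Nop10, -0.0264 to 0.124 for Snu13, -0.0566 to 0.14 for Tarbp2, -0.0521 to 0.542 for Vim and -0.714 to 3.53 for Acta2, which is near 0 CPM in both lines. For Snhg5 they ran from -0.0229 to 0.131 for Esrrb against Nanog-null and -0.0474 to 0.0899 for Esrrb+Nanog against Nanog-null, and in the last comparison from -0.0932 to 0.0453 for Lncenc1. Counting depth limits Platr1, Platr29, Platr9, Platr15 and Platr31, which had few counts per library.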
